A study of Mus musculus with 108 samples.

Results

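The sites described here lie around 10 genes of the pluripotency programme: Pou5f1, Nanog, Sox2, Klf4, Klf2, Esrrb, Tfcp2l1, Zfp42, Prdm14 and Dnmt3b. For each gene, every sorted reporter fragment and every plasmid fragment that overlapped the gene body or 100 kb on either side (GENCODE annotation, mm10) was taken. This gave 10 of the 21938 windows of protein-coding genes and 2036 of the 1177237 distinct sorted fragments. Overlapping fragments of one class were merged, which gave 114 distal sites and 26 promoter sites, the class being the one under which the fragments were deposited.

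The study cloned transposase-cut fragments of open chromatin from 5 stages of mouse blood cell differentiation in front of a minimal HSP68 promoter and a Venus-YFP gene. HM-1 mouse ES cells, whose Hprt gene does not work, received the constructs by targeting to Hprt, which repairs the gene, and the cells were differentiated and sorted by YFP. The stages were ES (undifferentiated), HB (hemangioblast), HE1 and HE2 (first and second stage of hemogenic endothelium) and HP (hematopoietic progenitors), and the HB to HP cells were made in vitro from HM-1 reporter cells. At each stage the cells were sorted into Negative, Low, Medium and High YFP gates, with Medium/High as 1 gate in the fifth replicate, over 5 replicates, which made 95 sorted lists, beside 10 plasmid lists and 3 PCR controls from HM-1 cells. Every reporter therefore sat in 1 genomic place that is not its own, in 1 cell line. The lists hold genomic fragments and no RNA, so the stages were not checked against marker transcripts here.

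In mouse ES cells, Oct4 (encoded by Pou5f1), Sox2 and Nanog bind together at enhancers, their own included, and keep the naive network on with Klf4, Klf2, Esrrb, Tfcp2l1 and Prdm14. This network is shut down as cells leave pluripotency. Distal enhancers of the network are known to close then, while Klf4 and Klf2 are used again in other tissues.

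A sorted list records only whether a fragment was seen, and the lists held between 504 and 131091 fragments (median 7918). All rates below are therefore distinct fragments per 10000 listed. The positive set of a stage and replicate holds every fragment in any of its lists with YFP (Low, Medium, High or Medium/High). Positive sets of replicates 1 and 2 held 66605 to 229786 fragments and those of replicates 3 to 5 only 1553 to 37403. One pair of HE1 lists, Low of replicate 4 and Negative of replicate 3, shared 83% of the smaller list, and Medium of replicate 2 and Negative of replicate 1 shared 78.5%, so the fits that use HE1 sets and the share of lost sites were also computed without the sets that hold such a list. The 10 windows are neighbourhoods and not genes alone: that of Pou5f1 also holds 9 other protein-coding genes, that of Nanog holds Gdf3, Dppa3 and Slc2a3, and only those of Sox2, Klf4 and Zfp42 hold no other.

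Sites that differ between stages, chosen after their values were seen, are shown first, as up to 300 bases of the mm10 plus strand at the centre of each site. Capitals mark short words of pluripotency factors found on either strand: the octamer ATGCAAAT bound by Oct4, the SOX word ACAATGG, the KLF word GGGTGTG and the ESRRB word TCAAGGTCA. Sites without capitals hold none of them. The first set was positive in ES and HB cells and absent from HE1 and HE2.
Pou5f1 -1.12 kb site, chr17:35504749-35505048: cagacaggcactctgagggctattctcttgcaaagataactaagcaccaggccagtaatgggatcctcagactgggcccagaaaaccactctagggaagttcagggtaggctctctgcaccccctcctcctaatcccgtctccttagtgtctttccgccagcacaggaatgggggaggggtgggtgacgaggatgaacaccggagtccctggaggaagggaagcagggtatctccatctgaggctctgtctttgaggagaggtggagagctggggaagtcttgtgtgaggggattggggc
Nanog -4.67 kb site, chr6:122702667-122702966: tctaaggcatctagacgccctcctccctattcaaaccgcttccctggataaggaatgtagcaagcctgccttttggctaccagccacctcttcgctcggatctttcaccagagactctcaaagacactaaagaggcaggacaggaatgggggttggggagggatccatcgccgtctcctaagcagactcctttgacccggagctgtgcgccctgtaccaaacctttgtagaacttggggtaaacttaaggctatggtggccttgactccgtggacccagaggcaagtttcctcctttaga
Zfp42 -0.210 kb site, chr8:43307041-43307340: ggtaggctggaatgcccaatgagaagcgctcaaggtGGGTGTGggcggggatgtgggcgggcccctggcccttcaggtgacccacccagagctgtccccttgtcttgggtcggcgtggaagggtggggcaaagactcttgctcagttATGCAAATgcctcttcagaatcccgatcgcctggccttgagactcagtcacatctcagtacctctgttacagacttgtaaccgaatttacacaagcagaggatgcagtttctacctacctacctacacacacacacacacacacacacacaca
The second set was positive in ES cells and at no later stage, and the Nanog site of this set holds 2 octamers. Each printed site of this set holds a word, but other sites positive in ES only hold none. One of these is the Esrrb site at 138 kb, with 2 fragments in 2 ES replicates.
Zfp42 -13.9 kb site, chr8:43320688-43320980: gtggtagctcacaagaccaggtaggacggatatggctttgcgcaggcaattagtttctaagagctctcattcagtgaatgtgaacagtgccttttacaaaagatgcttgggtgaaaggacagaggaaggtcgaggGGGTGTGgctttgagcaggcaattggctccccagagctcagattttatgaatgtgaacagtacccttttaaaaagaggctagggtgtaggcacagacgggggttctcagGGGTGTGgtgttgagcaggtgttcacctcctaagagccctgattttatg
Esrrb 141 kb site, chr12:86501679-86501951: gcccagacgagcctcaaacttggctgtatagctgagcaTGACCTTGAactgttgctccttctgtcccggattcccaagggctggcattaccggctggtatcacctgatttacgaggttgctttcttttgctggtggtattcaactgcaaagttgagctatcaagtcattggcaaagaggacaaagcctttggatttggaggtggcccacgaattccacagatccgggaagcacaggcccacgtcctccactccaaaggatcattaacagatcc
Nanog -82.9 kb site, chr6:122624421-122624720: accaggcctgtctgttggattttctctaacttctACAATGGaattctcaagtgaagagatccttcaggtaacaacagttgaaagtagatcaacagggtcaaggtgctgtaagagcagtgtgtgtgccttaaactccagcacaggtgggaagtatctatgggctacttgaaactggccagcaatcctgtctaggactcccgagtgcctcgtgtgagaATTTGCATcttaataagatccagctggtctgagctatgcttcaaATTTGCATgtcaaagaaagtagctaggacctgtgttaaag
The last was absent in ES cells and among the richest sites of the loci later.
Klf2 -50.5 kb site, chr8:72268412-72268711: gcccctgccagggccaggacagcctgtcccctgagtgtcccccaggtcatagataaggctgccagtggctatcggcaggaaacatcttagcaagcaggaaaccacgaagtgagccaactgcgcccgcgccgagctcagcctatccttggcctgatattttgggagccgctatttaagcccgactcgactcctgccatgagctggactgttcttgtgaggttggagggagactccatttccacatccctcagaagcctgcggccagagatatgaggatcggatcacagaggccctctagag

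As a group, the pluripotency factor loci gave positive fragments at like rates at ES and later. The 10 windows together gave 16.3 positive fragments per 10000 at ES, 18.3 at HB, 16.2 at HE1, 16.7 at HE2 and 18.2 at HP. In the Negative lists the same windows gave 14.3, 18.3, 16.1, 18.7 and 16.2. Pooled over replicates, the rate at ES was 0.938 of that over the later stages (95% interval 0.831 to 1.06, which covers counting error only). Of the 326 positive fragments at ES, the Klf2, Nanog and Dnmt3b windows gave 123, 59 and 52. The pooled rates therefore mostly describe these windows. Ratios of single loci ran from 0.404 (Prdm14) to 6.46 (Zfp42). The interval of Zfp42 lay above 1, and single sites of Pou5f1 and Zfp42 left the positive lists after HB.

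Across all windows, the contrast of ES with the mean of the later stages was fitted with limma on log2 (rate + 1), and 0 of 19128 windows passed an adjusted p of 0.05 (percent called 0; 629 had an unadjusted p below it). The 10 loci all had an adjusted p of 0.9997, with log2 changes from -0.62 (Dnmt3b) to 0.30 (Zfp42) and a median of -0.10, against a median of 0.04 over all windows. Adding 1 draws the change of a locus with a rate below 1 toward 0, and limma gave small and large sets equal weight. The lack of limma calls therefore does not show equal rates. edgeR's quasi-likelihood test on the same numbers of fragments, which weights each set by its size, called 641 windows, 324 higher and 317 lower in ES. That is 3.35% of windows, and it called 1 of the 10 loci, Zfp42.

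**Figure D1:**
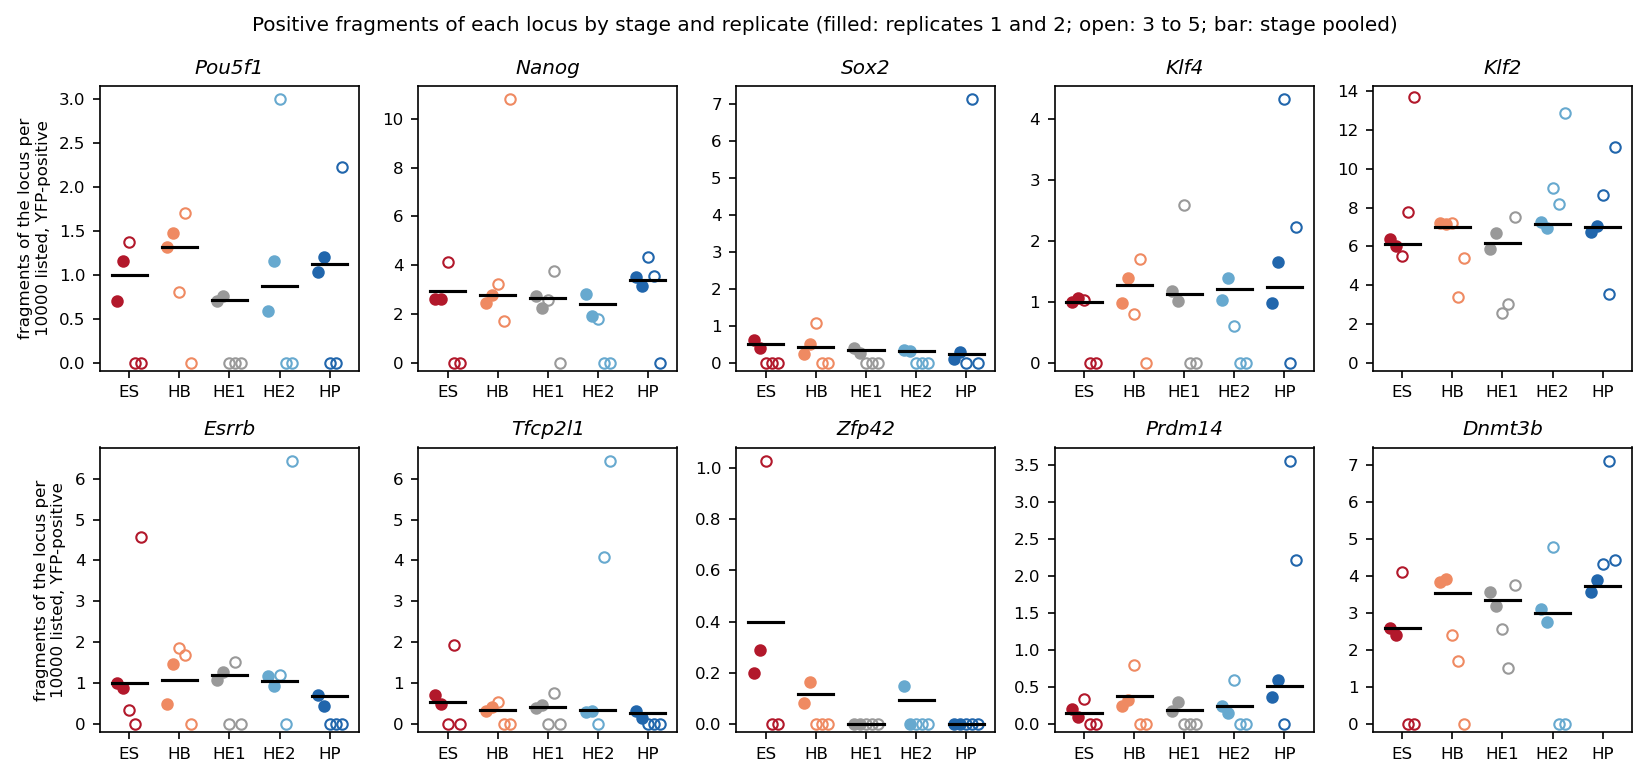
Distinct YFP-positive fragments of each locus per 10000 listed, by stage. Each point is 1 of 5 replicates (filled, replicates 1 and 2; open, the shallow replicates 3 to 5) and the bar is the stage with replicates pooled. Zfp42 has its points above 0 in 3 ES, 2 HB and 1 HE2 sets, while the Klf2 window is above 0 in all 25.

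Pou5f1 (chr17:35506018-35510772, plus strand) encodes Oct4, the POU factor without which pluripotency is lost. Its window gave 0.700, 1.16, 1.37, 0 and 0 positive fragments per 10000 in the 5 ES sets, and 0 to 3.00 with a median of 0.728 in the 20 later sets. The ES values lay inside the later ones, and the pooled ratio of ES to later was 0.999 (interval 0.584 to 1.63). Much of the signal belonged to neighbouring genes: the promoter site with the most positive fragments lay at 10.9 kb over the starts of Tcf19 and Cchcr1, with 11, 21, 10, 19 and 17 positive fragments from ES to HP. The distal site with the most, at 85.0 kb, gave 3, 3, 2, 1 and 3.

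The site nearest the start of Pou5f1 behaved otherwise. At -1.12 kb (chr17:35504711-35505085) it gave 4 distinct positive fragments at ES, in 3 replicates, and 6 at HB, in 4 replicates. It gave none at HE1, HE2 or HP, and none in any Negative list. Its rates were 0.10, 0.290 and 0.685 per 10000 in ES replicates 1 to 3 and 0.164, 0.164, 0.267 and 1.70 in HB replicates 1 to 4. At the ES rate, 24.7 fragments would have been listed over the later stages, and 6 were. A second promoter site inside the Pou5f1 gene, at 3.46 kb, went the other way, with none at ES and HB, 4 at HE1 and 3 at HE2.

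Nanog (chr6:122707489-122714633, plus strand), a homeobox factor of the core network, gave 2.60, 2.61, 4.11, 0 and 0 per 10000 in the ES sets and 0 to 10.8 with a median of 2.66 in the later sets. The pooled ratio was 1.04 (interval 0.774 to 1.39). A single site carried much of the signal, that at 104 kb, beyond Slc2a3, with 30, 31, 49, 35 and 33 positive fragments from ES to HP. It was positive at all stages and had 13 to 16 Negative fragments at each. The site at -4.67 kb (chr6:122702667-122702966 in its centre), in the region where a Nanog enhancer is known, gave 4 positive fragments in 3 ES replicates, 4 in HB, none in HE1 and HE2, and 5 in HP, all from replicate 1. A neighbour at -3.95 kb gave 8 fragments at HB, all in Negative lists, and no positive one. The promoter sites of the window were those of Gdf3 and Slc2a3, and none lay at the Nanog start. The lost site at -82.9 kb, the only distal site of the loci with an octamer, lies 1840 bases from the start of Dppa3 and rested on 1 fragment in 1 ES replicate.

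Sox2 (chr3:34650405-34652461, plus strand), the HMG-box partner of Oct4, gave 0.60, 0.387, 0, 0 and 0 in the ES sets. The later sets ran from 0 to 7.13 with a median of 0.0517, the highest being the HP set of replicate 4, which rested on 2 fragments. The 21 distal and 30 promoter fragments of the window divided differently by stage. Positive distal fragments numbered 7 and 9 at ES and HB and 2 at each later stage, and promoter fragments 3, 2, 12, 8 and 4 from ES to HP. The distal site at 13.9 kb gave 5, 2, 1, 1 and 2, and that at -74.0 kb gave 1 at ES, 4 at HB and none later.

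Klf4 (chr4:55527143-55532466, minus strand), a zinc finger factor of the naive network that also acts in other tissues, gave 1.00, 1.06, 1.03, 0 and 0 in the ES sets and 0 to 4.33 with a median of 1.00 in the later sets. Its distal site with the most fragments lay in the gene's own coding exon at 1.94 kb, with 9, 11, 19, 12 and 11 positive fragments from ES to HP. Its promoter site gave 3, 11, 14, 14 and 10. None of the 4 distal sites positive in ES was lost afterwards.

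Klf2 (chr8:72319033-72321656, plus strand), a relative of Klf4 that is also active in endothelium, had the densest window, at 386 fragments per 100 kb. It gave 6.40, 6.0, 5.48, 7.78 and 13.7 in the ES sets and 2.59 to 12.9 with a median of 7.10 in the later sets, so it was seen in all 25. The balance of distal and promoter fragments shifted within this total. Distal fragments were 11 of 123 positive fragments at ES, then 54 of 182 at HB, 101 of 250 at HE1, 90 of 230 at HE2 and 72 of 175 at HP. Over the whole series the distal part also grew in replicate 1, a deep one. Its positive sets held 24207 distal of 100002 fragments at ES, 33988 of 121797 at HB and 79799 of 229786 at HE1. Those of HE2 and HP held 71040 of 203083 and 66007 of 193442. In the limma fit of distal fragments alone the log2 change of the window was -1.43, with an adjusted p of 0.905. The promoter site of Klf2 itself gave 38, 53, 65, 53 and 45 fragments from ES to HP.

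Few sites held most later distal fragments of the Klf2 window. The site at -50.5 kb gave no fragment at ES in any gate, and 32, 51, 40 and 34 positive fragments from HB to HP. Its rate over the later stages was 8.47-fold above a floor of 3 fragments over ES, with counting error of the later fragments left out. The site at -23.1 kb gave none at ES and HB and 19, 26 and 17 from HE1 to HP. The site at -61.5 kb gave none at ES and 12, 11, 8 and 8 later. Conversely, 3 sites of 1 fragment each, at -46.6, -46.5 and 15.2 kb, were positive in ES only.

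Esrrb (chr12:86361117-86521628, plus strand), an orphan nuclear receptor, gave 1.00, 0.871, 0.343, 0 and 4.57 per 10000 in the ES sets and 0 to 6.44 with a median of 0.825 in the later sets. The highest ES value came from 1 fragment in a small set. The intronic sites at 34.3, 41.9 and 72.4 kb were positive at every stage, with 4, 3 and 5 fragments at ES and 1, 3 and 3 at HP. Deeper in the gene, the sites at 138 and 141 kb gave 2 positive fragments each in ES and none later, the first in 2 replicates and the second in 1. The site at 141 kb is the only one of the 114 distal sites with the ESRRB word.

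Tfcp2l1 (chr1:118627945-118685168, plus strand), a grainyhead-family factor of naive cells, gave 0.700, 0.484, 0, 1.94 and 0 in the ES sets and 0 to 6.44 with a median of 0.302 in the later sets. Its promoter site gave 4, 4, 7, 7 and 2 fragments from ES to HP. A distal site at 144 kb gave 4 fragments in ES, in 2 replicates, none in HB, HE1 and HE2, and 2 in HP.

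Zfp42 (chr8:43295063-43306980, minus strand) encodes Rex1, a classical marker of naive ES cells. Its window gave the fewest fragments of the 10, 13 in all, in 13 of 95 lists. The ES sets gave 0.200, 0.290, 1.03, 0 and 0 per 10000. Of the 20 later sets 17 gave none, and the others gave 0.0821 and 0.164 at HB and 0.148 at HE2. The 3 ES sets with a fragment lay above all later sets, and the other 2 were at 0, as were most later sets. The pooled ratio was 6.46 (interval 1.97 to 22.6), from 8 distinct fragments at ES against 6 later. The edgeR log2 change was 2.86 with an adjusted p of 0.00205 over all windows, and the limma log2 change was 0.30 ± 0.10 (SE) with an adjusted p of 0.9997. The edgeR call rested on the deep replicates: without replicate 1 the window fell under the filter of 4 sets with a fragment, and without replicate 2 the adjusted p was 0.118. Without the 2 HE1 sets that share a list it was 0.00429. HE1 and HP held no positive fragment of the window. The ES rate was 5.40-fold above a floor of 3 fragments over HE1 (all 5 HE1 sets included) and 3.34-fold above that over HP. Counting error of the 8 ES fragments is left out, so these folds are not lower limits.

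The Zfp42 window has 3 sites and each was seen at ES. The promoter site at -0.210 kb gave 4 positive fragments in 3 ES replicates and 3 in 2 HB replicates, with 1 Negative fragment at HB and nothing later. Of its positive gate entries 5 were High, 1 Medium and 1 Low. It holds an octamer and a KLF word, and it is the only one of the 26 promoter sites with either. The distal site at -13.9 kb gave 2 fragments in 2 ES replicates and none elsewhere. The site at -26.7 kb gave 2 at ES and 3 at HE2.

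Prdm14 (chr1:13113457-13127163, minus strand), a PR-domain repressor of naive and germ cells, gave 0.200, 0.0967, 0.343, 0 and 0 in the ES sets and 0 to 3.57 with a median of 0.210 in the later sets. Its pooled ratio, 0.404 (interval 0.0795 to 1.28), was the lowest of the 10. The distal site with the most fragments, at -27.4 kb in an intron of Ncoa2, gave none at ES and HB and 5, 4 and 4 from HE1 to HP. Of the 3 distal sites positive in ES 2 were lost, each with 1 distinct fragment.

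Dnmt3b (chr2:153649450-153687730, plus strand), the de novo DNA methyltransferase of early embryonic cells, gave 2.60, 2.42, 4.11, 0 and 0 in the ES sets and 0 to 7.13 with a median of 3.38 in the later sets. Its own promoter site gave 7, 6, 6, 9 and 3 fragments, and that of Mapre1, at 91.9 kb, gave 23, 25, 39, 19 and 17. Upstream, the distal site at -39.5 kb gave 4, 15, 18, 8 and 9 fragments, while those at -38.3 and -87.7 kb gave none at ES and 50 and 47 over the later stages.

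**Figure D2:**
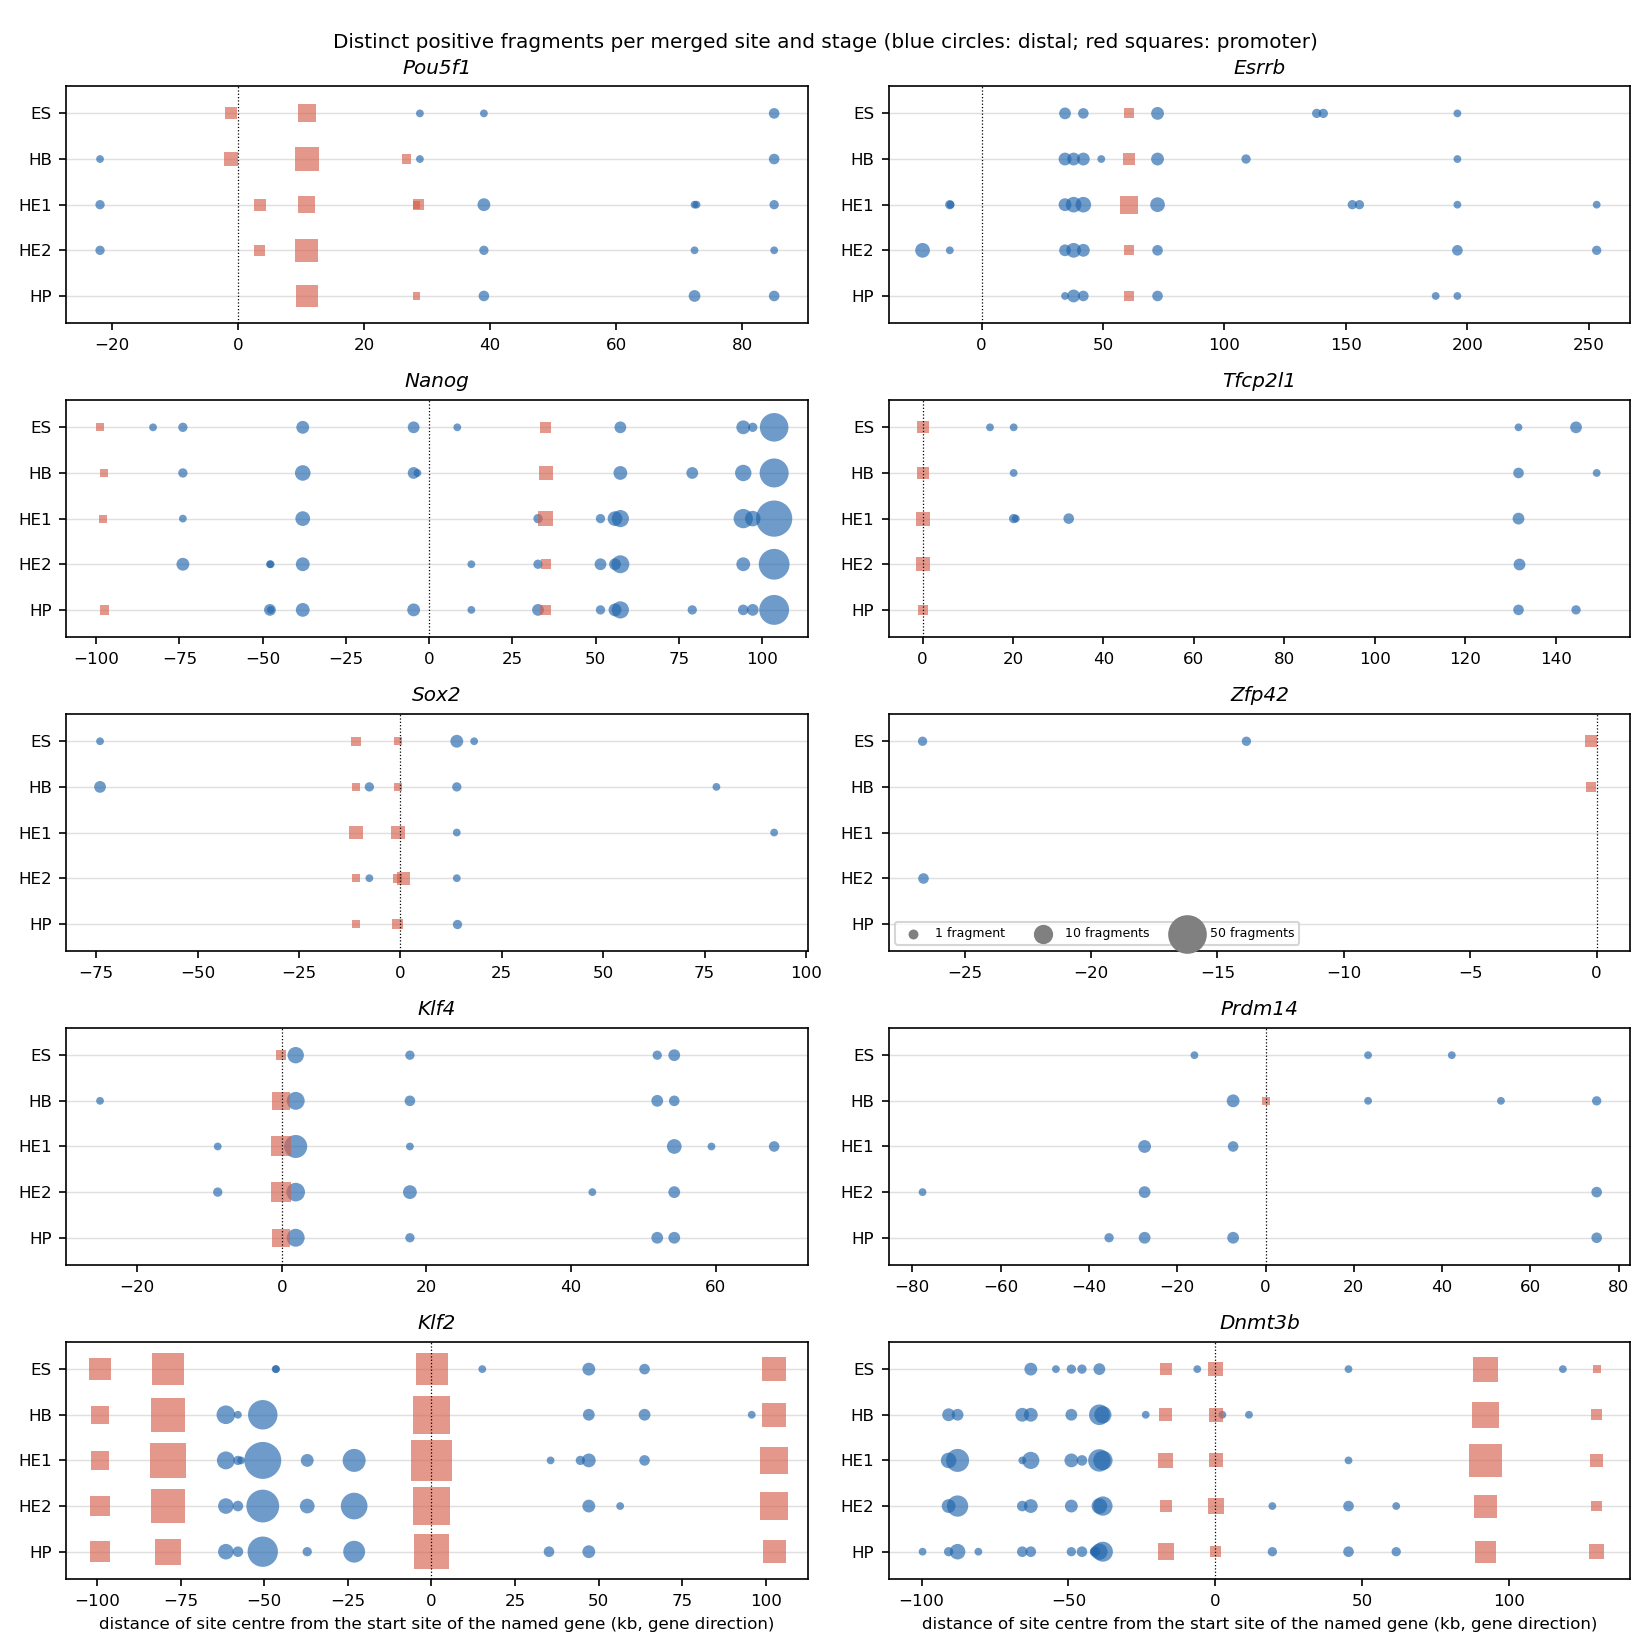
Merged sites of each locus by distance from the start site of the named gene (kb, in the direction of the gene) and by stage. Symbol area grows with the number of distinct positive fragments, blue circles are distal and red squares promoter sites. The Pou5f1 site at -1.12 kb and the Zfp42 promoter site appear at ES and HB only, and the Klf2 site at -50.5 kb from HB on.

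The single sites were tested over the whole table of merged sites. limma called 4 of 34744 sites (0.0115%), and 0 of the 63 sites of the loci that could be tested, where the lowest adjusted p was 0.486, for the Zfp42 promoter site. The other 77 of the 140 had a fragment in fewer than 4 sets. edgeR, applied to sites after the data had been seen, called 1524 sites (4.39%) and 7 of the 63. Higher in ES than in the mean of the later stages was the Pou5f1 site at -1.12 kb (log2 2.74, adjusted p = 0.00970). So was the Zfp42 promoter site (log2 2.43, adjusted p = 0.0382). Both were also positive at HB and at no stage after it, so these calls do not set ES apart from HB. Lower in ES were the Klf2 sites at -50.5 kb (adjusted p = 0.00664) and -61.5 kb (0.0140), the Dnmt3b sites at -38.3 kb (0.00900) and -87.7 kb (0.0215) and the Esrrb site at 37.9 kb (0.0387), each with no ES fragment. A site without an ES fragment can pass the filter of 4 sets only through later sets. The direction of these calls was therefore fixed in advance. The Nanog site at -4.67 kb was not called (log2 1.39, adjusted p = 0.231). The 7 sites had no call under limma and its alternatives. All 7 were among the 8 of 61 called by edgeR without the 2 HE1 sets that share a list, the other one being a Dnmt3b site at -90.8 kb. edgeR was not fitted to sites with a replicate left out, so how far the 7 calls rest on the deep replicates was not tested. Over windows, edgeR called 641 in all, 76 without replicate 1 and 69 without replicate 2. At the low rates of single sites the added 1 draws limma changes toward 0. With 0.25 added, limma called 26 of 34744 sites and 0 of the 63, where the lowest adjusted p was 0.313. Why limma and edgeR differed at these sites was not tested.

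Which sites were lost after ES was then counted, a lost site being one without a fragment in the positive lists of any later stage. The study filtered its fragments against open chromatin peaks, and it is not known here whether each list was filtered against the peaks of its own stage. A site that gave no active reporter and a site removed by that filter cannot be told apart, so lost and absent describe the lists and not reporter activity. Of the 47 distal sites with a positive fragment at ES, 15 had none at any later stage, which is 31.9% (exact 95% interval 19.1 to 47.1). Over all 16999 ES-positive distal sites the share was 28.6%, so the share at the pluripotency factor loci was near the background. By locus the lost sites were 0 of 3 for Pou5f1, 2 of 9 for Nanog, 1 of 3 for Sox2, 0 of 4 for Klf4, 3 of 5 for Klf2, 2 of 6 for Esrrb, 1 of 4 for Tfcp2l1, 1 of 2 for Zfp42, 2 of 3 for Prdm14 and 3 of 8 for Dnmt3b. Most lost sites were thin: 12 of the 15 rested on 1 distinct fragment. Among sites with at least 2 ES fragments 3 of 27 were lost (11.1%, against 9.57% of all sites), namely the Zfp42 site at -13.9 kb and the Esrrb sites at 138 and 141 kb. Drawing equal numbers of fragments per stage gave 33.2% at the loci and 30.9% over all sites. Without the 2 HE1 sets that share a list, the shares were 31.9% and 29.0%. Of the 18 ES-positive promoter sites 1 was lost, a Gdf3 site in the Nanog window (5.56%, against 4.31% of all). In the reverse direction, 62 of the 94 distal sites positive at a later stage had no positive fragment at ES (66.0%, interval 55.5 to 75.4), against 76.3% over all sites. This share cannot be set against the lost share. It compares 4 later stages with ES alone, which had fewer positive fragments (200199) than any later stage. Of the 62 sites, 24 held 1 fragment.

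**Figure D3:**
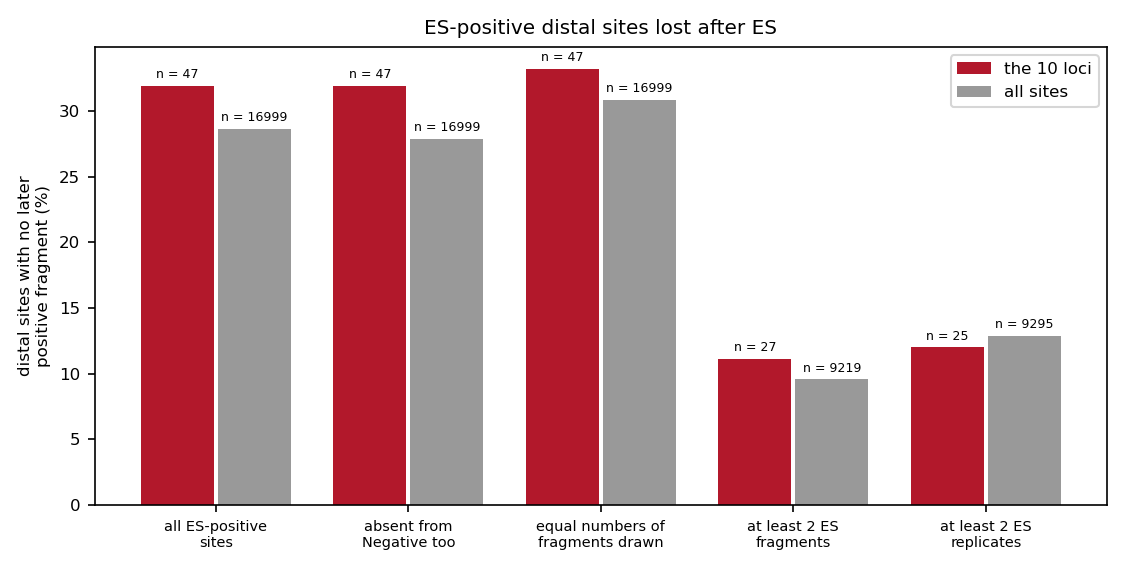
Percent of ES-positive distal sites without a positive fragment at any later stage, for the 10 loci (red) and all sites (grey), under 5 ways of counting; n is the number of ES-positive sites. The 2 bars of each pair lie close together, at 31.9% and 28.6% for all ES-positive sites and at 11.1% and 9.57% for sites with at least 2 ES fragments.

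Well covered sites that were missing from the positive sets of a stage were missing from its Negative lists too. Among the 51 sites of the loci with at least 10 positive fragments over the stages, 30 absences from a stage were found, and in all 30 no Negative fragment was listed either. Over all 25618 such sites this held for 96.0% of 14478 absences. At stages where a site was positive, 25.3% of the site and stage pairs at the loci had no Negative fragment. The lists therefore give no case, among the 51 sites, of a reporter seen only in YFP-negative cells of a stage. The 51 were chosen for their positive fragments, and sites outside them do give such cases. The Nanog site at -3.95 kb was in Negative lists only at HB, and 5 distal sites of the loci were in Negative lists only at every stage where they were seen.

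The positive and Negative sets were compared at each stage to see whether fragments of the loci were favoured in cells with YFP. limma and edgeR called 0 of 17436 to 18050 windows at each of the 5 stages (percent called 0). An unadjusted p below 0.05 was found for 198 to 454 windows by limma and 65 to 557 by edgeR. The number of the loci that could be tested was 7 to 9 by stage, and the lowest adjusted p was 0.992 under limma and 0.998 under edgeR. Between the brighter gates (Medium and High) and Low, limma called 0 windows at each stage (0 of 16353 to 17883, with 107 to 354 at an unadjusted p below 0.05), with an adjusted p of 0.988 or more at the loci. The HE1 comparisons also gave 0 calls without the sets that share a list, of 8777 windows for positive against Negative (limma and edgeR, with 269 and 114 at an unadjusted p below 0.05) and of 13265 for the gates (limma, 252), where 3 and 6 loci could be tested. Pooled rates of the 10 windows in Negative, Low, Medium and High were 14.3, 15.4, 15.4 and 16.8 at ES, 18.3, 17.5, 18.3 and 18.5 at HB, 16.1, 15, 16.2 and 16.3 at HE1, 18.7, 16.5, 17.3 and 16.8 at HE2, and 16.2, 18.0, 17.9 and 17.8 at HP. In the Negative sets the contrast of ES with later stages called 6 of 18533 windows under limma (0.0324%) and 69 under edgeR (0.372%), none of them at the 9 loci tested. Zfp42 was the locus that could not be tested there.

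Against single later stages, limma called 0 windows for HB, HE1 and HE2 (521, 476 and 670 had an unadjusted p below 0.05) and 13 for HP (0.068%), with none of the loci. edgeR called Zfp42 against HE1 (adjusted p = 0.00861, 1.98% of windows called) and HP (adjusted p = 0.0238, 3.5%), and not against HE2 (adjusted p = 0.334, 1.57%) or HB (adjusted p = 0.634, 2.34%). The 4 contrasts share the ES sets. Without the 2 HE1 sets that share a list, the adjusted p of Zfp42 was 0.0842 against HE1, past the threshold no longer, and 0.0197 against HP.

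The plasmid lists show what had been cloned from each stage, and here the loci were rich in ES. In the pDONR lists, the first cloning vector, with 5660096 to 8832923 distinct fragments per stage, the Zfp42 window held 114 fragments per 1000000 at ES and 26.5, 19.4, 17.0 and 17.4 from HB to HP. Its ES value was 5.71 times the mean of the later stages. The Pou5f1 window held 268 per 1000000 at ES and 131, 84.7, 78.2 and 71.6 later, 2.94 times the later mean. Sox2 followed at 1.97, Esrrb at 1.81, Nanog at 1.68, Prdm14 at 1.61, Tfcp2l1 at 1.60 and Klf4 at 1.27. Klf2 (0.984) and Dnmt3b (0.819) were not richer in ES. The pSKB lists, from the reporter vector, gave 5.61 for Zfp42, 3.01 for Pou5f1 and 0.893 for Dnmt3b, in nearly the same order. At least a 2-fold excess at ES was found for 2 of the 10 loci in both vectors, and for 1.1% of 21309 windows in pDONR and 1.65% of 21169 in pSKB. With 1 plasmid library per stage and vector there is no test, and intervals cover counting error only.

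**Figure D4:**
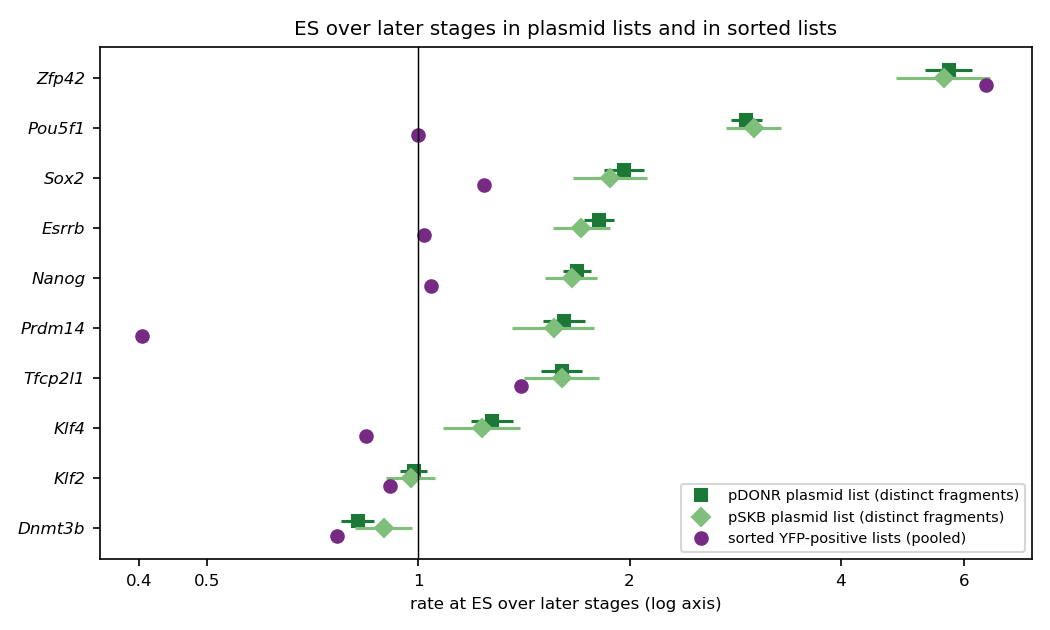
Rate at ES divided by the rate at later stages (log axis) for each locus, in the pDONR (squares) and pSKB (diamonds) plasmid lists with exact Poisson intervals of the ES count, and in the pooled YFP-positive lists (circles). Zfp42 lies to the right in all 3, whereas Pou5f1 lies near 3 in the plasmid lists and at 0.999 in the sorted lists.

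Several of the sites printed above showed the stages apart in the plasmid lists. In bins of 2 kb around Pou5f1, the bin at -1 kb held 42.9 pDONR fragments per 1000000 at ES, 15.3 at HB and 1.47, 0.942 and 1.31 from HE1 to HP, while the Tcf19 bin at 11 kb held 28.3, 28.6, 20.9, 16.8 and 17.1. At Nanog, the bin at -5 kb held 32.9, 11.4, 1.81, 2.04 and 2.63. At Zfp42, that at -1 kb held 12.4, 2.89, 0.34, 0.157 and 0.584. At Klf2, the bin at -51 kb rose, with 3.53, 7.07, 46.4, 57.5 and 59.9. At Pou5f1 and Zfp42 the sorted fragments were likewise seen at ES and HB only. At Nanog 5 sorted fragments were seen at HP, where the plasmid bin was low, and at Klf2 sorted fragments were frequent from HB on and plasmid fragments from HE1 on.

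**Figure D5:**
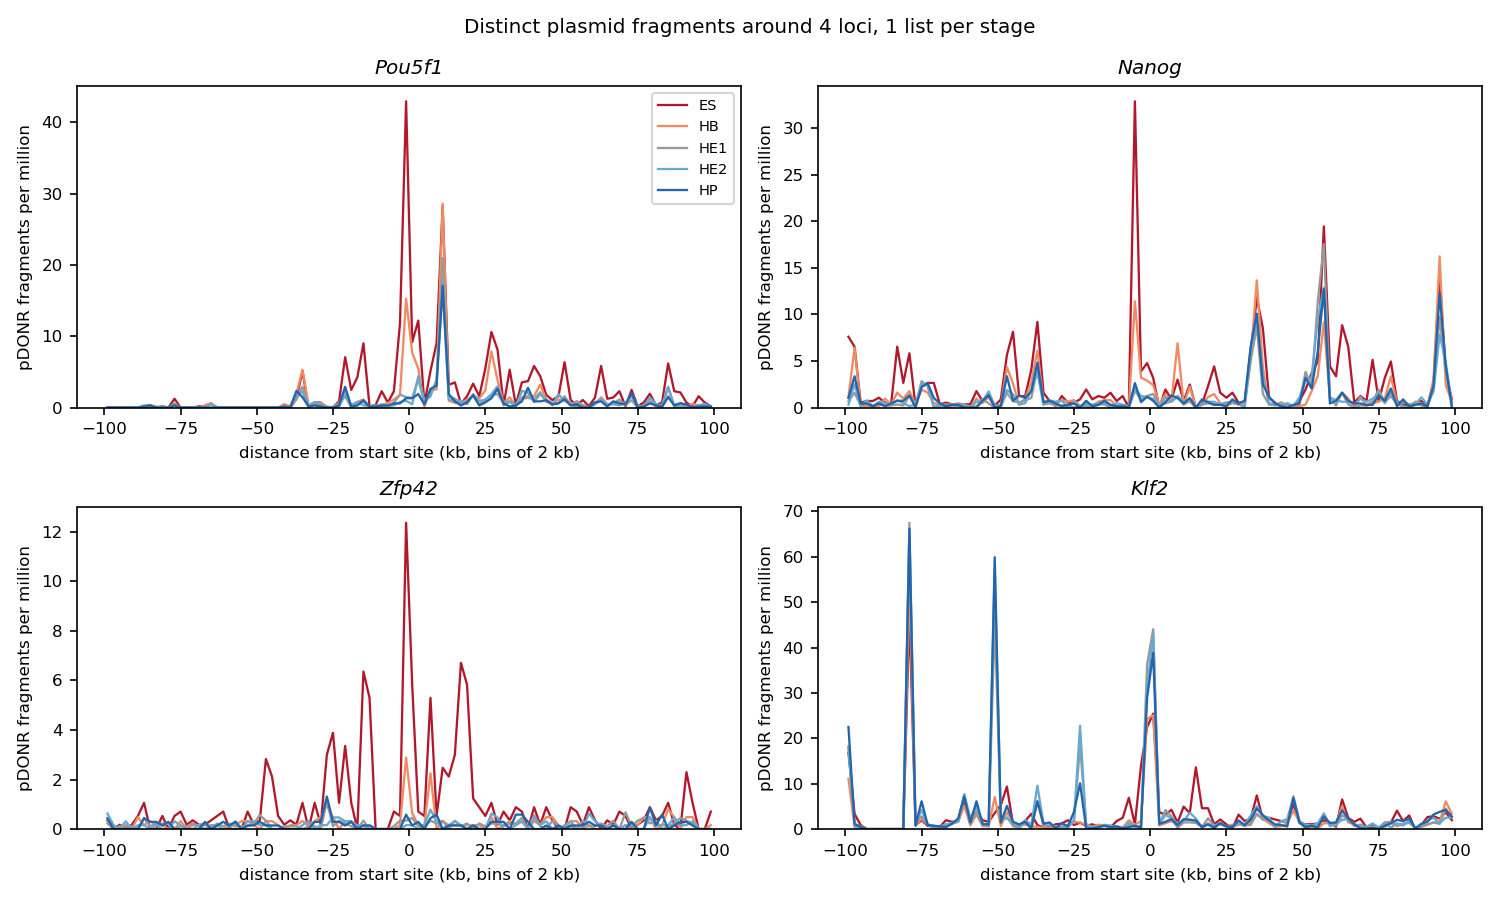
Distinct pDONR fragments per 1000000 in bins of 2 kb against distance from the start site (kb), 1 line per stage and 1 plasmid list per line. ES and HB stand above the other stages just upstream of Pou5f1 and at -5 kb from Nanog, ES stands above the other stages at the tallest peaks around Zfp42, and the peak at -51 kb from Klf2 is that of HE1, HE2 and HP.

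The same was seen over sites. The 15 lost distal sites held a median of 14.1 times as many pDONR fragments per 1000000 at ES as in the mean of the later stages, and ES was the highest of the 5 stages for 14 of them. The 32 distal sites positive in ES and later had a median of 1.48, and the 62 positive only later a median of 0.876. In the 30 absences of well covered sites, the plasmid list of the missing stage held a median of 12.3% of that of the site's richest stage, against 76.6% where the site was positive. By stage the medians at absences were 9.32, 16.5, 6.08, 20.3 and 70.0% from ES to HP, from 12, 6, 3, 6 and 3 absences. That of HP lay near the 76.9% of the sites positive at HP. Sites and plasmid lists share the open chromatin from which both were made, so these medians describe and do not test.

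The plasmid lists also show at which stages a sorted fragment was found cloned, and 1 fragment can be in the lists of several stages. Of positive fragments identical to a plasmid fragment, 18.7% over the whole series were in an ES plasmid list, against 72.7% for Zfp42 (8 of 11), 37.8% for Pou5f1, 33.3% for Sox2, 28.2% for Tfcp2l1, 27.9% for Nanog, 25.0% for Esrrb, 23.2% for Klf4, 22.6% for Prdm14, 15.4% for Dnmt3b and 15% for Klf2. Over the whole series 13.2% were in ES plasmid lists alone, against 72.7% for Zfp42, 33.3% for Sox2, 30.5% for Pou5f1 and 23.1% for Tfcp2l1. Nanog gave 21.9%, Esrrb 20.5%, Prdm14 19.4%, Klf4 14.7%, Dnmt3b 12.9% and Klf2 8.15%. The share of fragments cloned in pSKB that were found again in positive ES cells was 1.07% over all. It was above this for Klf2 (1.71%), Nanog (1.64%) and Zfp42 (1.38%, 4 of 290), and below it for Klf4 (0.869%), Tfcp2l1 (0.789%), Esrrb (0.746%), Dnmt3b (0.734%), Pou5f1 (0.650%, 7 of 1077), Sox2 (0.604%) and Prdm14 (0.263%). At HB, HE1, HE2 and HP the share over all was 1.59%, 2.11%, 1.52% and 1.61%, and that of Zfp42 0.345%, 0, 0.345% and 0. Between 78.1% and 89.6% of the sorted fragments of a locus were identical to a plasmid fragment.

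The words printed in capitals were few at the loci. In 300 bases at the site centre, on both strands, the octamer was found in 1 of 114 distal sites of the loci (0.877%, against 1.64% of 58911 distal sites) and in 1 of 26 promoter sites (3.85%, against 1.05% of 17849). The SOX word was in 6 distal sites (5.26% against 5.74%), the KLF word in 8 (7.02% against 8.69%), the ESRRB word in 1 (0.877% against 0.647%), the STAT word TTCCNGGAA in 1 (0.877% against 1.5%) and the spaced TFCP2L1 pair in 7 (6.14% against 5.08%). Among promoter sites the KLF word was in 1 (3.85% against 7.66%), and the other 4 words in none. A match is a run of letters, not a bound site.

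For comparison, 2 other lists of windows were read from the same fits. Of 22 further genes of the pluripotency network limma called 0, with a median log2 change of 0.01, and edgeR called 1, Zfp281 (log2 0.92, higher in ES, adjusted p = 0.0202), beside 3.35% of all windows. Of 20 genes of blood and endothelium limma called 0, with a median of -0.29, and edgeR called 6, all lower in ES: Myb, Runx1, Erg, Gfi1b, Kdr and Gfi1. Erg, an ETS factor of blood and endothelium, had a log2 change of -2.18 (adjusted p = 1.75e-05), and Runx1, a regulator of blood stem cell emergence, -1.27 (adjusted p = 0.00307). The limma changes furthest from 0 were 1.07 for Zfp281, -0.99 for Stat3, 0.77 for Tbx3 and -0.73 for Lifr in the network list, and -1.27 for Spi1, -1.24 for Erg, -1.08 for Runx1 and -1.02 for Tal1 in the blood list.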

How the data were processed

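Trimmed reads (Trim Galore) had been aligned to mm10 with Bowtie2, filtered with SAMtools and written as 1 interval per pair with bedtools by the authors, and HOMER is also named in the submitters' processing notes. The sorted lists as deposited hold the start and end of each distinct fragment (other values, with no read number), split by the authors into distal and promoter files. The plasmid and control lists hold a read count per fragment, deposited as raw counts. Libraries were amplified by 25 to 30 PCR cycles without molecular identifiers, so only presence was used, and intervals and floors cover counting error only. The methods describe filters against the control lists, all plasmid fragments and open chromatin peaks. The sources used here do not give whether each list was filtered against the peaks of its own stage, and whether the plasmid libraries of the stages were pooled before transfection. Plasmid and control lists count starts 1 base lower than the sorted lists, so 1 base was added to the starts of plasmid and control fragments. Of the sorted fragments, 83.5% were then identical to a plasmid fragment, against 3.73% as deposited.

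The members and gene lists were chosen with earlier results of these data known. Rates, log2(rate + 1), limma 3.58.1 (trend) and edgeR 4.0.16 (TMM, quasi-likelihood) in R 4.3.3 were used over all windows or sites with a fragment in at least 4 sets, with Benjamini-Hochberg adjustment over all of them. Standard errors are those of limma. Windows follow GENCODE vM21. Named are all 10 loci, per locus the distal and the promoter site with most positive fragments, up to 3 sites lost after ES, sites past the threshold, sites shown for contrast after their values were seen, and up to 4 genes per list by change or by an edgeR call. Nothing says that replicates were separate cultures, so p-values measure the spread between these samples. Scripts were tested on simulated data. Alternatives were other pseudocounts, filters, window sizes, fragment classes, bins, tools and left-out replicates.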

Additional observations from a re-analysis of the deposited data

Results flagged for a closer look

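In 9 of 50 groups of 5 positive sets, 1 set stood apart from the other 4 (gap over range above Dixon's value). Dixon's value flags about 5% of groups of normal values with equal spread. Rates from few fragments in sets of unlike size are not such values, so 9 of 50 cannot be set against 5%. Most of these values rest on few fragments. Nanog gave 10.8 per 10000 in HB replicate 5, from 2 fragments, and 0 in HP replicate 5. Sox2 gave 7.13 in HP replicate 4, from 2 fragments, and Dnmt3b 7.13 in the same set. Klf2 gave 13.7 in ES replicate 5, from 3 fragments. Esrrb gave 4.57 in ES replicate 5 and 6.44 in HE2 replicate 5, each from 1 fragment. Zfp42 gave 1.03 in ES replicate 3 and 0.148 in HE2 replicate 1, each from 3 fragments. In the PCR controls of HM-1 cells, which no comparison uses, 5 of the 2036 sorted fragments of the loci were found, 1 at Nanog, 1 at Klf2 and 3 at Dnmt3b.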

How the results depend on the processing

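Fits of edgeR to sites and to left-out sets, and fits without the HE1 sets that share a list, were added after the data were seen. With edgeR the windows called were 641 for ES against later stages, 447, 378, 301 and 670 against HB, HE1, HE2 and HP, and 69 in Negative sets. Sites called were 1524 by edgeR and 26 with 0.25 added, and windows called from distal fragments only were 34. edgeR without replicates 1 to 5 called 76, 69, 584, 807 and 634 windows, and 648 without the 2 HE1 sets, where it called 493, 141, 328 and 737 windows against HB, HE1, HE2 and HP, 1505 sites, and 64 windows in Negative sets without 2 HE1 Negative sets. limma then called 1 window against HE1. Leaving out a replicate gave 0 to 27 calls for HP, 0 to 25 in Negative sets, 1 to 6 among sites, and 0 to 1 in positive against Negative (ES, HB, HE2, HP) and in high against low gates (HB, HE1).

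Replicate numbers were not taken to pair the sets, since not every pair correlated above 0.1, and whether equal numbers mark one culture is not given. Correlations of same-numbered sets ran from -0.00621 to 0.286 between stages (37 of 50 above 0.1, with all 5 pairs of ES with HB and with HE2) and from -0.0228 to 0.407 between positive and Negative (18 of 25). With the replicate block, 31 windows in place of 13 were called for ES against HP, 0 in place of 6 in Negative sets, and 0 with and without it against HB and HE2.

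Log2 changes of loci turned in sign as follows, and the cause was not tested. Pou5f1 was 0.15 in distal fragments, 0.027 in fragments identical to a plasmid fragment and 0.051 with edgeR without replicate 1, and ranged from -0.23 to 0.011 without a replicate. Nanog was 0.17 with edgeR without replicate 1. Sox2 was 0.33 with edgeR, 0.25 in distal fragments, 0.31, 0.57, 0.50 and 0.35 with edgeR without replicates 2 to 5 and 0.29 without the HE1 sets, and ranged from -0.24 to 0.032. Klf2 was -0.19 with edgeR, -0.076 within 50 kb, -1.43 in distal fragments, -0.095, -0.021, -0.16, -0.18 and -0.18 with edgeR without replicates 1 to 5 and -0.14 without the HE1 sets. Esrrb was -0.20 with edgeR, -0.28 in distal fragments, -0.28, -0.18, -0.054, -0.15 and -0.25 with edgeR without replicates 1 to 5 and -0.14 without the HE1 sets, and ranged from -0.23 to 0.38. Tfcp2l1 ranged from -0.091 to 0.28.

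The distal share lost was 11.1% for sites with at least 2 ES fragments and 12% with at least 2 ES replicates, and 27.8 to 33.3% without a replicate. The promoter share was 0 with either minimum and in replicates 1 and 2 alone, and 0 to 6.25% without a replicate. By plasmid reads the ES ratios in pDONR were 1.18 for Klf4, 0.929 for Klf2, 1.78 for Tfcp2l1 and 0.870 for Dnmt3b, and in pSKB 2.56 for Pou5f1, 1.43 for Nanog, 3.06 for Sox2, 7.21 for Zfp42 and 1.01 for Dnmt3b, which was below 1 by fragments. Depth limits the share of lost sites, 12 of 15 of which rest on 1 fragment.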
